A study of Mus musculus with 77 samples.

Results

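The genes described here are 10 genes of mast cells, tissue-resident immune cells packed with granules of proteases and histamine. They were taken by symbol from the lung expression tables, and all 10 are among the 24940 genes listed there: the chymase genes Mcpt1, Mcpt2, Mcpt4 and Cma1, the tryptase genes Tpsb2 and Tpsab1, the carboxypeptidase gene Cpa3, the basophil protease gene Mcpt8, and the receptor genes Kit and Ms4a2. The group was chosen by measured values, the higher Mcpt2 and Cma1 TPM of DBA/2J lungs kept in hyperoxia, so the oxygen response of the DBA/2J lungs is given as a description. Tests are given for the other strains and, for members other than Mcpt2 and Cma1, between DBA/2J and C57BL/6J.

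The series compared lungs of newborn mice of the strains C57BL/6J (B6) and DBA/2J (DBA) and of mice with the genotype Trem2 knock out (KO). Trem2 encodes a receptor of macrophages and other myeloid cells, and the KO and DBA mice were purchased strains. Pups were placed in 75% oxygen (hyperoxia) within 24 h of birth and stayed there to postnatal day 14, or were raised in room air. Whole lungs were perfused with saline before freezing, and poly(A) RNA was sequenced. The groups hold 4 room-air and 3 hyperoxia libraries for B6, 4 and 4 for KO, and 4 and 4 for DBA, and a separate B6 set (B6 set 2) holds 2 and 3. The column names mark all KO, DBA and B6 set 2 lung libraries as male, whereas both B6 groups of the first set hold male and female libraries. All groups are 14 days old. The labels do not say whether each library is 1 animal, so p-values measure the spread between these libraries, which may in part be technical.

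Mast cells arise from bone marrow precursors and complete their development in tissue, where they depend on stem cell factor, the ligand of the receptor Kit. Connective tissue mast cells store the chymases Mcpt4 and Cma1, tryptases and Cpa3, whereas mucosal mast cells, which appear at epithelial surfaces during parasite infection and allergy, are known for Mcpt1 and Mcpt2. Crosslinking of IgE on the receptor whose beta chain is Ms4a2 releases the granules. In bulk lung RNA, more cells of a type and more RNA per cell cannot be told apart.

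Values are in TPM, a transcript's share of a library scaled for its length, so that levels can be compared between genes. Differences are given on the scale log2(TPM + 1), and a gene was called at an adjusted p under 0.05 in limma, with Benjamini-Hochberg adjustment over the whole table. Depth was taken as the reads on listed genes, estimated from the steps of low values. It was 18.5 to 41.1 M (mega) reads in the libraries of B6 and KO lungs. Depth reached down to 12.55 M reads in DBA and was 7.08 to 8.04 M reads in B6 set 2. The TPM of listed genes summed to 529199.3 to 544857.5 in B6 and KO, up to 575805.8 in DBA and 572924.8 to 605691.7 in B6 set 2. Trem2 was listed at 1.05 to 2.75 TPM in KO and 2.14 to 3.73 TPM in B6 room-air lungs, which overlap, and at 1.96 to 2.67 against 5.97 to 9.85 TPM in hyperoxia, which do not. Trem2 RNA therefore does not separate the room-air libraries labelled KO from those labelled B6, and the labels do not say which bases of the gene were deleted. The B6 columns are the same libraries in the KO and the DBA tables, so comparisons of KO and of DBA with B6 share their controls. Strain and the date code in the column names go together for DBA and B6 and cannot be told apart. KO and B6 hyperoxia libraries likewise share no date code, so within hyperoxia genotype and date code cannot be told apart, and a date-code term there rests on the room-air libraries. In B6 room air the female libraries differ in date code from the male ones, so sex and date code cannot be told apart there.

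Chymase and tryptase RNA was higher, and Kit RNA lower, in B6 lungs kept in hyperoxia. Mcpt4 went from a mean of 0.710 to 7.27 TPM, Cma1 from 2.10 to 13.1 TPM and Tpsb2 from 1.05 to 6.99 TPM. Kit went from 73.7 to 31.6 TPM. Of the 10 members, 7 passed the filter on low values, Mcpt2 only through its hyperoxia libraries. Of the 6 others, 4 rose (Mcpt4, Cma1, Tpsb2 and Cpa3) and 1 fell (Kit), in a comparison in which 42.7% of all genes tested were called, 16.6% higher and 26% lower. Over all 10 members with no filter the median log2 difference was 0.73, beside -0.02 over 22123 genes. Without a filter, 5 of the 10 members were higher in hyperoxia with no overlap between libraries (Mcpt2, Mcpt4, Cma1, Tpsb2 and Tpsab1). In the other direction 1 was lower (Kit). Tpsab1 did not pass the filter, and Mcpt2 passed only through hyperoxia libraries. Among genes that passed, 17.3% were higher and 26.4% lower without overlap.

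**Figure D1:**
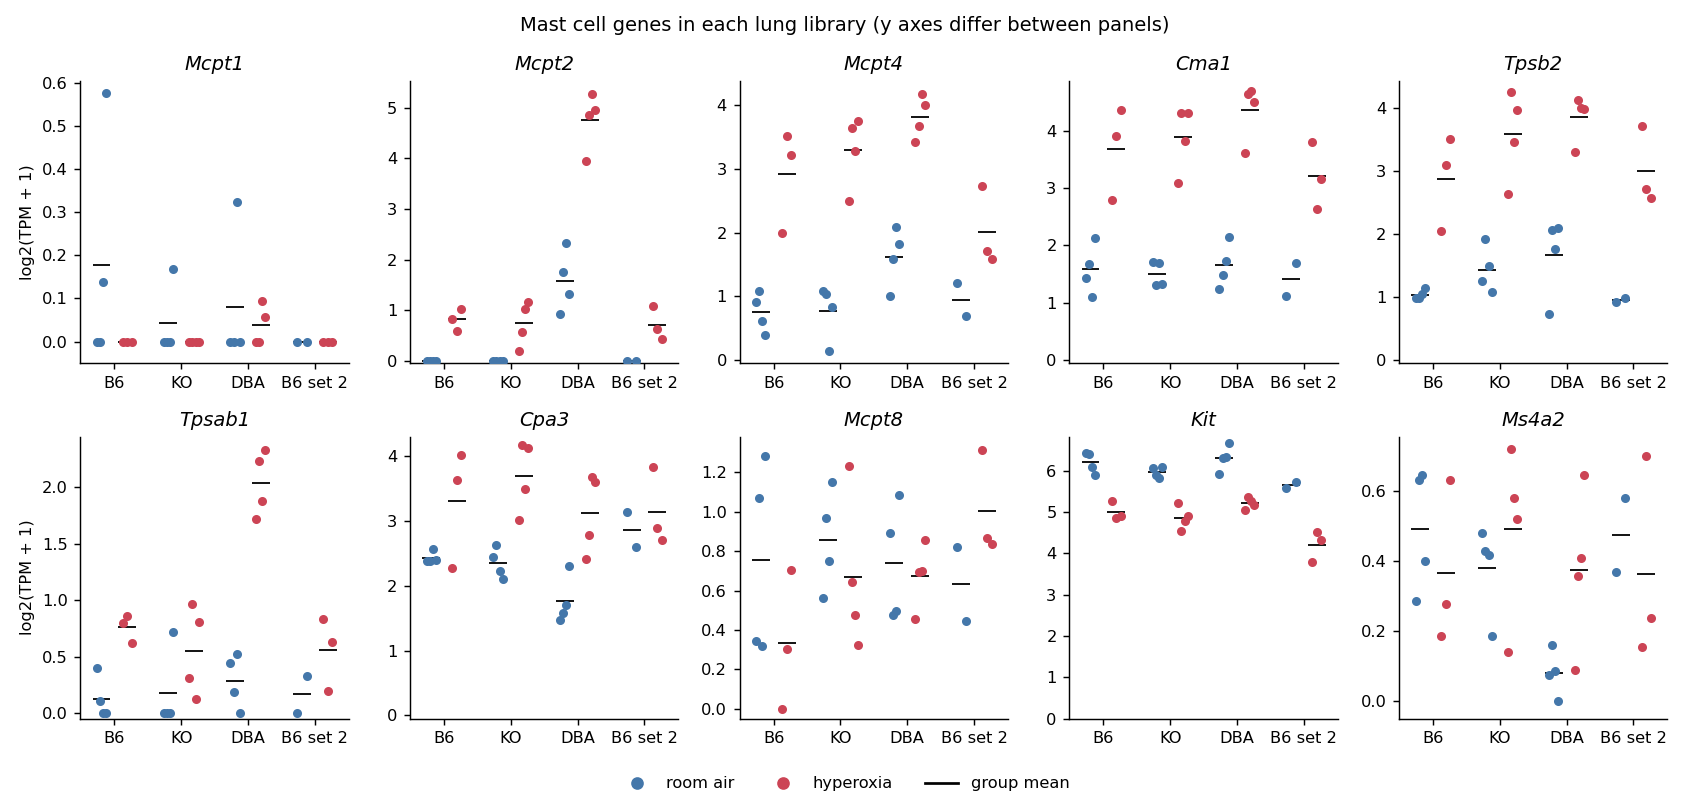
Level of each of the 10 members in every lung library, as log2(TPM + 1) on the y axis (its range differs between panels), by strain or set on the x axis; points are libraries, blue in room air and red in hyperoxia, and black lines are group means. Mcpt4, Cma1 and Tpsb2 are higher and Kit is lower in all hyperoxia libraries than in any room-air library of the same strain, and Mcpt2 stands at 14.4 to 37.6 TPM only in the DBA hyperoxia lungs.

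Mcpt4 and Cma1 encode the chymases of connective tissue mast cells, which are serine proteases. Both lie in a cluster with Mcpt1, Mcpt2 and Mcpt8 that spans 143.7 kb of chromosome 14 (chr14:55941451-56085197, mm10). The 110 bases before the start sites of Mcpt1 and Mcpt4 are shown because the genes differ in level although these stretches are alike. Those of Cma1 and Cpa3, whose levels moved together, are shown beside them. The sequences are from RefSeq (GRCm38.p6, the assembly named mm10), run 5′ to 3′ on the strand of the gene and end at the base before its start site. Capitals mark GATAA or GATAG on either strand, letters that the GATA factors of mast cells can bind.

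Mcpt1 (chr14:56017854-56017963, plus strand): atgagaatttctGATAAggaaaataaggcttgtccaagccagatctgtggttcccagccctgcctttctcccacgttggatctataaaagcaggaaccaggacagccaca
Mcpt4 (chr14:56062311-56062420, minus strand): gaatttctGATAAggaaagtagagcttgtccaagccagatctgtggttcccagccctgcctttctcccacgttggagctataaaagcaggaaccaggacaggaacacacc
Cma1 (chr14:55944676-55944785, minus strand): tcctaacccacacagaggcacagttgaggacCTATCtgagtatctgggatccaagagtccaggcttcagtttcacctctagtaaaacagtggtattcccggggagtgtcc
Cpa3 (chr3:20242182-20242291, minus strand): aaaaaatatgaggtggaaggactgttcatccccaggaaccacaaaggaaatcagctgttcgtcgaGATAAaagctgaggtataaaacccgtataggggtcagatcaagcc

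In the best alignment, 100 of the 110 bases of Mcpt1 and Mcpt4 are identical (90.9%), whereas Mcpt4 and Cma1 share 60 (54.5%). RefSeq windows from 250 bases before to 50 after the start site were matched for 7 of the 10 members, Mcpt1, Mcpt4, Mcpt8, Cma1, Cpa3, Kit and Ms4a2. GATAA occurs on either strand in 5 of these 7, as in 25.3% of 32544 windows of the same length, and GATAG in 1 of 7, as in 23.3%. TATAAA is found in 3 of 7 (13.6% of windows), CANNTG in 4 of 7 (72.3%), and CATGTG, which is 1 form of CANNTG, in 0 of 7 (14.2%). GATAA begins 45 bases before the start site in Cpa3, and GATAG lies 79 bases before it in Cma1. These are matches of letters, and binding of GATA factors was not measured in the series.

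Mcpt4 was at 0.878, 1.12, 0.527 and 0.318 TPM in the B6 room-air lungs and at 2.997, 10.5 and 8.34 TPM in hyperoxia. The ratio of the means was 10.2, and Mcpt4 rose by 2.16 (SE 0.36) on the log2 scale (limma adjusted p = 0.00019). In KO lungs it was at 1.11, 1.05, 0.105 and 0.773 TPM against 4.63, 11.5, 8.68 and 12.4 TPM, a rise of 2.52 (SE 0.33; adjusted p = 0.000142). All hyperoxia lungs of both strains lie above all room-air lungs. B6 set 2 had 1.30 and 0.615 TPM without added oxygen against 5.67, 2.27 and 1.99 TPM with it, which do not overlap, a difference of 1.06 (SE 0.36).

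Cma1, the other connective tissue chymase, was at 1.70, 2.20, 1.15 and 3.35 TPM in B6 room-air lungs and at 5.90, 14.0 and 19.4 TPM in hyperoxia. It rose by 2.10 (SE 0.35; adjusted p = 0.000193), and the means differ 6.25-fold. KO lungs gave 2.28, 1.47, 2.23 and 1.52 TPM against 7.50, 18.8, 13.1 and 18.9 TPM, a rise of 2.37 (SE 0.32; adjusted p = 0.000184). In both strains even the lowest hyperoxia library is above each room-air library. B6 set 2, with libraries other than those that chose the group, gave 1.18 and 2.23 TPM against 13.005, 5.23 and 7.96 TPM in hyperoxia, where Cma1 rose by 1.79 (SE 0.32; adjusted p = 0.0184).

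Mcpt1 and Mcpt2 encode the chymases of mucosal mast cells. Mcpt1 was at 0.491 TPM or less in every lung library, and it was listed at 0 in all B6 and KO hyperoxia libraries and in all of B6 set 2. It reached 10 estimated reads over the 4 B6 room-air libraries together, so no difference could be seen at this depth. Reads shared between Mcpt1 or Mcpt2 and close copies in the cluster may have been assigned to either gene. The treatment of such reads is not given in the sources used.

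Mcpt2 was listed at 0 in all room-air libraries of B6, KO and B6 set 2. In hyperoxia it was at 0.780, 0.504 and 1.02 TPM in B6 and at 0.145, 0.485, 1.01 and 1.24 TPM in KO, which correspond to 10 to 17 and 2 to 23 estimated reads per library. B6 set 2 had 1.12, 0.534 and 0.338 TPM in hyperoxia. Every hyperoxia library of these 3 sets thus holds Mcpt2 reads and no room-air library does. Mcpt2 passed the filter on low values only through these hyperoxia libraries, so no test of it is used. The log2 differences of 0.81 in B6 and 0.74 in KO depend on the pseudocount, with 3.08 and 2.77 at a pseudocount of 0.1. No fold is given against groups at 0.

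Tpsb2 encodes the tryptase of mast cell granules that is released as a tetramer bound to heparin. It was at 0.972, 0.974, 1.06 and 1.22 TPM in B6 room-air lungs and at 3.13, 7.51 and 10.3 TPM in hyperoxia. It rose by 1.84 (SE 0.35; adjusted p = 0.000639), and the ratio of means was 6.63. KO lungs gave 1.37, 2.80, 1.81 and 1.11 TPM against 5.19, 18.1, 10.0 and 14.7 TPM, a rise of 2.14 (SE 0.33; adjusted p = 0.000426). No hyperoxia lung of either strain overlaps a room-air lung. In B6 set 2 Tpsb2 went from 0.889 and 0.979 TPM to 12.2, 5.56 and 4.97 TPM, a difference of 2.05 (SE 0.32). There Mcpt4 and Tpsb2 passed the filter only through their hyperoxia libraries, so no test of them is used.

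Tpsab1, the neighbouring tryptase gene on chromosome 17, was much lower in B6 and KO lungs. Its level was 0.317, 0.077, 0 and 0 TPM in B6 room air and 0.741, 0.820 and 0.540 TPM in hyperoxia, which do not overlap, and KO values of 0 to 0.641 and 0.092 to 0.948 TPM do. It did not pass the filter in the tables of KO and of B6 set 2 and was not tested there. The pair spans 24.8 kb (chr17:25343245-25368092, mm10) and consists of close copies, so reads may be divided between them in a way that cannot be checked here.

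Cpa3 encodes the carboxypeptidase that is stored with the chymases and trims their products. In B6 room-air lungs it was at 4.25, 4.23, 4.93 and 4.30 TPM, and in hyperoxia at 3.83, 11.4 and 15.2 TPM. The first of these hyperoxia libraries, which comes from the only female of that group, lies below all room-air libraries. Cpa3 was called in B6 (difference 0.87, SE 0.33, adjusted p = 0.0458), and the call was lost under 11 of 15 alternative settings, with adjusted p up to 0.256 (without hyperoxia library 3). These include leaving out hyperoxia library 2 or any 1 of the room-air libraries. In KO it rose by 1.35 (SE 0.31; adjusted p = 0.0068), from 4.42, 5.19, 3.67 and 3.30 TPM to 7.10, 17.013, 10.3 and 16.5 TPM without overlap. In B6 set 2 the room-air values of 7.78 and 5.04 TPM overlap those of 13.3, 6.43 and 5.54 TPM from hyperoxia, and the difference of 0.28 (SE 0.32) did not pass (adjusted p = 0.665).

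For Cpa3 the ratio of means was 2.29 in B6, 3.07 in KO and 1.32 in B6 set 2, beside 6.25, 7.77 and 5.12 for Cma1. Within a library, the ratio of Cpa3 to Cma1 was 1.28 to 4.29 in B6 room-air lungs and 0.649 to 0.815 in B6 hyperoxia lungs. KO lungs gave 1.65 to 3.53 and 0.781 to 0.947. The ratio of Tpsb2 to Cma1 was 0.363 to 0.919 in B6 room air and 0.531 to 0.537 in hyperoxia, which overlap. These ratios are within 1 library and do not depend on its scaling, and they were not tested.

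**Figure D2:**
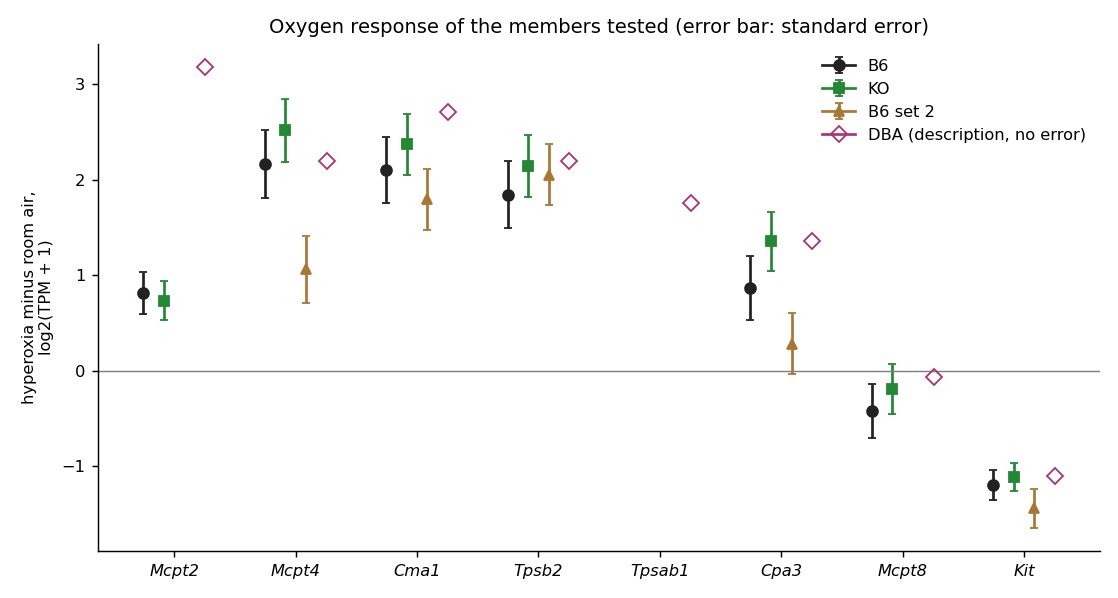
Difference between hyperoxia and room air on the y axis, as log2(TPM + 1), for the members that passed the filter on low values, given by gene on the x axis; filled symbols with bars are estimates and standard errors for B6, KO and B6 set 2, and open symbols are the DBA values, given without error as a description. Mcpt4, Cma1 and Tpsb2 lie near 2 in B6 and KO and Kit lies below -1 in all sets.

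In KO lungs 4 of the same 6 members rose (Mcpt4, Cma1, Tpsb2 and Cpa3) and 1 fell (Kit), with Mcpt2 left out of the count as in B6, beside 19.7% of all genes called, 10.6% higher and 9.11% lower. With no filter the median over the 10 members was 0.55, beside -0.01 over all genes. Without a filter, 5 of the 10 members were higher with no overlap between libraries, Mcpt2 among them, and 1 was lower. Among genes that passed the filter, 12.8% were higher and 11.6% lower without overlap. In B6 set 2, 5 members passed the filter, Mcpt4 and Tpsb2 only through hyperoxia libraries. Of the 3 others 1 rose (Cma1) and 1 fell (Kit), beside 4.94% of all genes called, 3.13% higher and 1.81% lower. Without either of its room-air libraries, 0 members were called there. Over all 10 members, 5 were higher without overlap (Mcpt2, Mcpt4, Mcpt8, Cma1 and Tpsb2) and 1 lower. Mcpt2 and Mcpt8 did not pass the filter. Mcpt8 reached 0.770 TPM in room air and began at 0.783 TPM in hyperoxia. Among genes that passed, 20.7% were higher and 18.6% lower without overlap. With no filter the median was 0.39 over the 9 members that were detected, beside 0.02 over all genes.

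No member was called between KO and B6 lungs of the same condition. Mcpt2 is left out of these counts, because it passed the filter only through hyperoxia libraries and was listed at 0 in room air. In room air 0 of the other members tested were called, beside 0.0769% of all genes, 0.0512% higher and 0.0256% lower. At an unadjusted p under 0.05 there were 1320 genes and 0 of these members. The KO and B6 libraries of room air overlapped for all of these members, whereas 1.78% of genes were higher and 3.28% lower without overlap. In hyperoxia 0 of these members were called, beside 37.2% of all genes, 22% higher and 15.2% lower. All of these members overlapped, where 23.8% and 17.4% of genes did not. The largest difference there was at Tpsb2, 0.70 higher in KO (SE 0.35; adjusted p = 0.132). Without the first KO hyperoxia library it was 1.02 (adjusted p = 0.0211). Cma1 differed by 0.20 (SE 0.35), Mcpt4 by 0.38 (SE 0.36) and Cpa3 by 0.40 (SE 0.33), all higher in KO and within the spread of the libraries. With date code as a term 0 members were called, and Mcpt4 differed by 1.44 (adjusted p = 0.237).

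The difference between the oxygen responses of KO and B6 was tested as an interaction, with Mcpt2 again left out. Of the other members tested 0 were called, beside 25.3% of all genes, 16.4% higher and 8.98% lower. None of them had an unadjusted p under 0.05. The response of KO minus that of B6 was 0.35 (SE 0.49) for Mcpt4, 0.27 (SE 0.47) for Cma1, 0.48 (SE 0.45) for Cpa3 and 0.30 (SE 0.48) for Tpsb2. For Kit it was 0.08 (SE 0.22).

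Kit, the receptor for stem cell factor, was at 85.9, 83.4, 67.0 and 58.4 TPM in B6 room-air lungs and at 37.3, 28.2 and 29.2 TPM in hyperoxia. It fell by 1.19 (SE 0.16; adjusted p = 2.85e-05), and the room-air mean was 2.34 times the hyperoxia mean. KO lungs gave 65.9, 58.5, 55.7 and 67.7 TPM against 36.5, 22.2, 26.4 and 28.8 TPM, and Kit fell by 1.11 (SE 0.15; adjusted p = 0.000148). It thus moved against the proteases in the same libraries, and no library overlaps the other condition. In B6 set 2 it fell by 1.44 (SE 0.20; adjusted p = 0.00752), from 46.6 and 51.8 TPM to 12.8, 22.1 and 18.9 TPM.

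Kit is also expressed outside mast cells, among others in capillary endothelial cells of the lung and in melanocytes. Its values are therefore given beside markers of those cells. Summed over 6 capillary endothelial genes (Kdr, Gpihbp1, Aplnr, Plvap, Cdh5 and Pecam1), B6 lungs had 1534 to 1592 TPM in room air and 1218 to 1384 TPM in hyperoxia. KO lungs had 1486 to 1702 and 1119 to 1317 TPM, and B6 set 2 had 1072 to 1201 and 747 to 836 TPM, so the sum moved down with Kit in all 3 sets. The sum overlapped in DBA, at 1093 to 1641 and 1211 to 1566 TPM. The part of these cells in the Kit result was not tested.

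**Figure D3:**
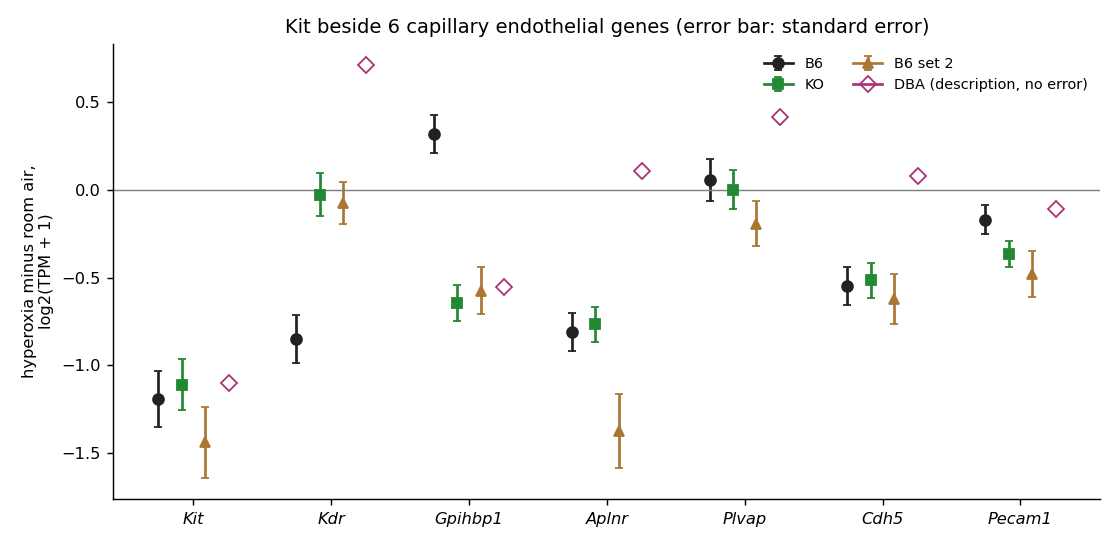
Difference between hyperoxia and room air on the y axis, as log2(TPM + 1), for Kit and 6 capillary endothelial genes on the x axis; filled symbols with bars are estimates and standard errors for B6, KO and B6 set 2, and open symbols are DBA values without error. Aplnr and Cdh5 lie below 0 in B6, KO and B6 set 2, and Kit lies lower than each of the other 6 genes in B6 and KO.

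Among the single endothelial genes, the apelin receptor gene Aplnr fell in B6 (-0.81, adjusted p = 2.92e-05), in KO (-0.77, adjusted p = 0.000141) and in B6 set 2 (-1.37, adjusted p = 0.0094). The VE-cadherin gene Cdh5 fell in the same 3 sets (-0.55, -0.52 and -0.62). Kdr, the VEGF receptor gene, fell in B6 (-0.85, adjusted p = 0.000129), differed by -0.03 in KO without passing, and the response differed between KO and B6 by 0.82 (adjusted p = 0.00407). In all, 1 of these 6 genes rose and 3 fell in B6, 0 rose and 4 fell in KO, and 0 rose and 3 fell in B6 set 2. The shares of all genes that rose and fell were 16.6% and 26%, 10.6% and 9.11%, and 3.13% and 1.81%. Summed over 4 melanocyte genes, levels overlapped between conditions in B6 (1.499 to 4.39 and 2.12 to 3.49 TPM) and in KO.

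Ms4a2, the beta chain of the IgE receptor, was at most 0.646 TPM in any lung library and did not pass the filter in any table. In B6 it was at 0.218, 0.549, 0.565 and 0.319 TPM in room air and at 0.137, 0.212 and 0.550 TPM in hyperoxia, which overlap. KO lungs gave 0.138 to 0.395 and 0.102 to 0.646 TPM. The gene for the alpha chain, Fcer1a, was also low, at no more than 0.762 TPM in any lung library. Other defining mast cell genes were as low, with at most 0.235 TPM for Mrgprb1 and 0.747 TPM for Mrgprb2, receptors for basic peptides on connective tissue mast cells.

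Mcpt8 encodes a protease of basophils rather than of mast cells. It was at 0.271, 1.10, 0.249 and 1.43 TPM in B6 room-air lungs and at 0, 0.234 and 0.630 TPM in hyperoxia. KO lungs gave 0.475, 0.957, 0.680 and 1.22 TPM against 1.35, 0.563, 0.392 and 0.25 TPM. The conditions overlap in both, and the differences of -0.42 (adjusted p = 0.255) and -0.19 (adjusted p = 0.653) did not pass. A further basophil protease, Prss34, stayed at or below 0.789 TPM. The counts of Mcpt8 are small, 45 estimated reads over the KO room-air libraries and 36 over the KO hyperoxia libraries.

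The oxygen response of the DBA lungs, whose libraries chose the group, is described without tests. Mcpt2 was at 0.883, 2.36, 4.00 and 1.51 TPM in DBA room-air lungs and at 14.4, 27.9, 37.6 and 30.1 TPM in hyperoxia, a ratio of means of 12.6. These hyperoxia values rest on 313 to 1050 estimated reads per library. Cma1 was at 1.38, 1.80, 2.30 and 3.44 TPM and at 11.3, 24.0, 24.7 and 21.6 TPM. The first hyperoxia library is the lowest for both genes.

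The libraries of both DBA conditions did not overlap for 6 members that were higher in hyperoxia (Mcpt2, Mcpt4, Cma1, Tpsb2, Tpsab1 and Cpa3) and 1 that was lower (Kit), beside 16.5% and 11.8% of the genes tested, and 31% of all genes were called, 18.6% higher and 12.4% lower. This contrast chose the group, and Tpsab1 passed the filter only through its hyperoxia libraries, so the count is only a description. Mcpt4 was at 1.01, 1.98, 3.23 and 2.53 TPM in room air and at 9.75, 11.7, 17.1 and 15.032 TPM in hyperoxia. Tpsb2 was at 0.657, 3.16, 2.38 and 3.26 TPM against 8.84, 16.4, 15.01 and 14.8 TPM. Tpsab1 was at 0.360, 0.137, 0.434 and 0 TPM against 2.30, 3.70, 2.68 and 4.04 TPM.

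Cpa3 was at 1.77, 1.99, 2.26 and 3.96 TPM in DBA room-air lungs and at 4.34, 5.90, 11.8 and 11.2 TPM in hyperoxia, and these ranges nearly touch. Kit was at 59.2, 78.8, 80.4 and 101.8 TPM against 31.9, 40.1, 37.8 and 35.1 TPM. Mcpt8 overlapped, at 0.391 to 1.12 and 0.370 to 0.808 TPM. The log2 differences were 3.18 for Mcpt2, 2.71 for Cma1, 2.20 for Mcpt4, 2.19 for Tpsb2, 1.76 for Tpsab1, 1.36 for Cpa3 and -1.10 for Kit. Mcpt1 remained at or below 0.252 TPM and Ms4a2 at or below 0.565 TPM.

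The response of DBA minus that of B6 was 2.37 for Mcpt2, 1.12 for Tpsab1 and 0.61 for Cma1. It was 0.03 for Mcpt4, 0.35 for Tpsb2, 0.49 for Cpa3 and 0.09 for Kit, and 29.2% of all genes were called in that contrast, 20% higher and 9.2% lower. The value for Mcpt2 rests on the pseudocount, since B6 room-air lungs are listed at 0: with a pseudocount of 0.1 it was 0.63. At that pseudocount the value for Mcpt4 turned to -0.49, that for Mcpt8 was 1.17, and the DBA oxygen difference of Tpsab1 was 3.54. The Mcpt2 level itself does not depend on the pseudocount, at 27.5 TPM ± 9.65 (SD, n = 4) in DBA and 0.770 TPM ± 0.261 (SD, n = 3) in B6 hyperoxia lungs. Reads shared with close copies in the cluster may affect it, as for Mcpt1.

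**Figure D4:**
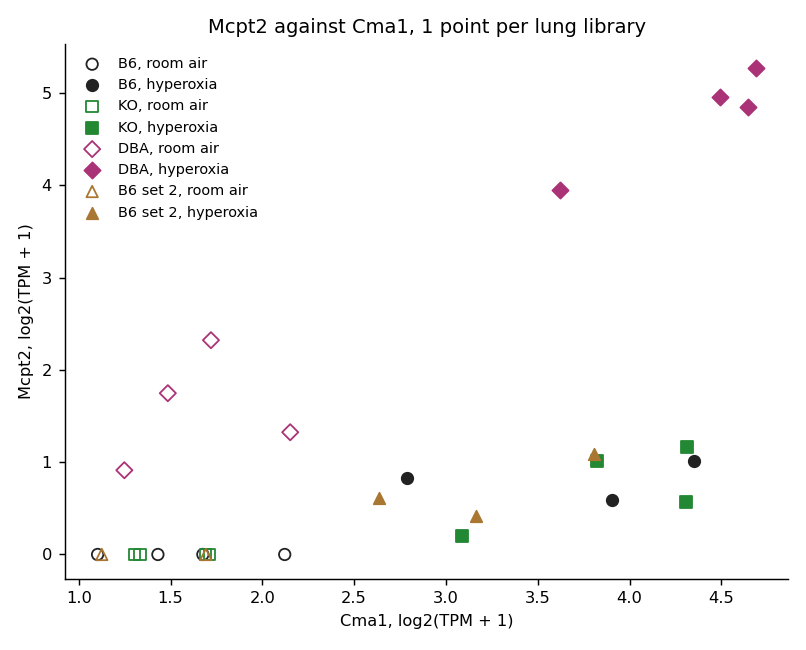
Mcpt2 (y axis) against Cma1 (x axis), both as log2(TPM + 1), with 1 point per lung library, open in room air and filled in hyperoxia. The hyperoxia libraries of B6, KO and B6 set 2 lie at Mcpt2 levels of 1.24 TPM or less and those of DBA at 14.4 TPM or more, although their ranges of Cma1 overlap.

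Within a library, the ratio of Mcpt2 to Cma1 was 1.16 to 1.52 in DBA hyperoxia lungs. It was 0.036 to 0.132 in B6, 0.019 to 0.077 in KO and 0.042 to 0.102 in B6 set 2 hyperoxia lungs. In room air it was 0.437 to 1.74 in DBA and 0 in every B6 and KO library. The mucosal chymase gene was thus at a level near that of the connective tissue chymase gene in DBA lungs of both conditions, and lower than it in every B6 and KO lung.

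DBA and B6 lungs were then compared within a condition, where Mcpt2 and Cma1 are described only, and the other members were tested with the caution that the DBA libraries are those that chose the group. In room air Mcpt2 was higher in all DBA than in all B6 libraries, and Cma1 overlapped (log2 difference 0.07). Tpsab1 passed the filter only through DBA hyperoxia libraries, so no test of it is used. Of the other 5 members that passed, 1 was called higher and 0 lower, beside 56.4% of all genes called, 21.5% higher and 34.8% lower. Libraries of the strains did not overlap for 18.7% of genes that were higher in DBA and 30.5% that were lower. Mcpt4 was 0.87 higher in DBA (SE 0.30; adjusted p = 0.0225), with overlapping libraries, and the call was lost under 6 alternative settings, including males only (0.62, adjusted p = 0.0806). Leaving out B6 library 3 or 4 or DBA library 3 or 4 also lost it, with adjusted p of 0.0511 to 0.0733. Cpa3 was lower in all DBA than in all B6 libraries, with a difference of -0.67 (SE 0.34) that did not pass (adjusted p = 0.103). With sex as a term it was -0.95 (adjusted p = 0.0428).

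In hyperoxia 2 of those 5 members were called higher in DBA than in B6 and 0 lower, beside 46.1% of all genes called, 23.3% higher and 22.8% lower, and 24.5% of genes in each direction had no overlap. Tpsab1 was 1.28 higher in DBA without overlap between libraries. Tpsb2 was 0.97 higher (SE 0.34; adjusted p = 0.0285) and Mcpt4 0.90 higher (SE 0.33; adjusted p = 0.0331), both with overlap. Without the female B6 hyperoxia library, the lowest of its group for both genes, the differences were 0.56 (adjusted p = 0.186) and 0.45 (adjusted p = 0.226), and neither passed. Leaving out DBA library 3 or 4 also lost both calls, and DBA library 2 that of Tpsb2, with adjusted p of 0.0586 to 0.0874. Kit, Cpa3 and Mcpt8 differed by 0.20, -0.19 and 0.34 and did not pass.

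Markers of other cell types are given beside these values. Summed markers of leukocytes in all (Ptprc and Laptm5) were 59.97 to 71.6 TPM in B6 room-air lungs and 46.1 to 58.3 TPM in B6 hyperoxia lungs. In DBA they were 29.7 to 38.9 TPM in room air and 27.7 to 47.9 TPM in hyperoxia, which overlap. The conditions also overlapped in KO and B6 set 2. Large airway and cartilage genes, mostly Scgb1a1 of secretory airway cells, summed to 14643 to 15132 TPM in B6 and 30840 to 39960 TPM in DBA hyperoxia lungs. In B6 this sum was 7649 to 10924 TPM in room air, so it moved up with the proteases there. In KO, DBA and B6 set 2 it overlapped between conditions. Lung epithelial genes summed to 6448 to 11589 TPM in DBA room-air lungs and 12920 to 24922 TPM in hyperoxia, and overlapped in the other sets. Of 5 heart muscle genes, Myh6 (2.69, adjusted p = 0.0485) and Tnnt2 (1.75, adjusted p = 0.0305) were called higher in B6 hyperoxia lungs, beside 16.6% of all genes. Myl7 (1.39), Actc1 (-0.39) and Nppa (-0.11) were not called. The sum of these genes overlapped in B6, at 38.9 to 59.8 TPM in room air and 43.4 to 139 TPM in hyperoxia. The sum of 5 eosinophil genes was lower in hyperoxia in B6 (room air 2.02 to 6.72 against 1.498 to 1.98 TPM), in ranges that nearly touch. In B6 set 2 it was also lower without overlap (3.85 to 6.04 against 2.83 to 3.07 TPM). Only 1 of these 5 genes passed the filter on low values in each set, Siglecf in B6. Heart muscle genes were lower without overlap in B6 set 2 as well (173.01 to 286 against 86.9 to 155 TPM). The sum over 6 basophil genes is mostly Gata2, which is also present in endothelium. This sum was higher in B6 hyperoxia lungs (72.9 to 87.4 against 44.7 to 51.3 TPM in room air). It was lower in those of KO, DBA and B6 set 2, each without overlap. Of the same list, Mcpt8 differed by -0.42 in B6 and was not called. Prss34, Fcer1a and Cd200r3 were at no more than 0.789, 0.762 and 1.17 TPM in any lung library. The sum is therefore given as a value of Gata2 and not of basophils. The part of these cells in the results was not tested.

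A wider list holds 20 mast cell genes that are not among the 10. Of 11 tested in B6, 3 rose (Gata2, Hpgds and Srgn) and 4 fell (Hdc, Il1rl1, Slc18a2 and Rab27b), with a median of -0.14, where 16.6% of all genes rose and 26% fell. In KO 0 rose and 2 fell (Gata2 and Hdc), where 10.6% and 9.11% of all genes did. In B6 set 2 0 rose and 1 fell (Gata2), where 3.13% and 1.81% did. Most of the genes tested are also expressed by other lung cells.

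Hdc, the enzyme that makes histamine, was at 21.7 to 32.8 TPM in B6 room-air lungs and at 13.3 to 18.4 TPM in hyperoxia, a fall of 0.72 (adjusted p = 0.0111) on the log2 scale. In KO it fell by 0.73 (adjusted p = 0.0156), from 19.9 to 36.5 TPM in room air to 13.8 to 19.7 TPM. With date code as a term the KO difference was -0.34 and did not pass (adjusted p = 0.125), nor did it without KO room-air library 2 (-0.61, adjusted p = 0.052). Among males alone the B6 difference was -0.42 (adjusted p = 0.249). Gata2, a transcription factor of mast cell and basophil precursors that is also present in endothelium, rose in B6 by 0.81 (adjusted p = 7.74e-05), from 41.3 to 48.9 TPM to 71.2 to 85.2 TPM. It fell in KO by 0.86 (adjusted p = 0.000137), and the response differed between KO and B6 by -1.67 (adjusted p = 9.93e-06). It also fell in B6 set 2 by 0.73 (adjusted p = 0.0207), a call that was lost without either room-air library (adjusted p = 0.109 and 0.201) or hyperoxia library 1 (0.0503). The B6 sets thus differ in direction, and that difference was not tested across tables.

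Of 13 genes for mast cell growth factors and their receptors, 7 were tested, and in B6 0 rose and 4 fell, where 16.6% of all genes rose and 26% fell. They include Il33, an alarmin that activates mast cells (-2.04, adjusted p = 9.11e-05), Tgfb1 (-0.44, adjusted p = 0.0107) and Kitl, which encodes stem cell factor (-0.43, adjusted p = 0.0013). In KO and in B6 set 2 0 were called. Il33 was at 32.8 to 56.7 TPM in B6 room air and 6.00 to 14.9 TPM in hyperoxia, but in B6 set 2 it was the other way, at 37.3 to 43.8 and 47.8 to 54.1 TPM without overlap (0.35, adjusted p = 0.157). Kitl stood at 123 to 147 TPM in B6 room air and 89.0 to 113 TPM in hyperoxia. Il33 differed between the responses of KO and B6 by 2.36 (adjusted p = 0.000934), and Kitl by 0.37 (adjusted p = 0.0376).

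Of 12 genes of IgE receptor signalling, all 12 were tested. In B6 2 rose and 5 fell (all genes: 16.6% and 26%), in KO 0 rose and 4 fell (10.6% and 9.11%), and in B6 set 2 0 rose and 1 fell, Inpp5d (3.13% and 1.81%). The phospholipase gene Plcg2 fell in B6 by 1.07 and the kinase gene Btk by 0.66. In KO the phosphatase gene Inpp5d fell by 0.53 and the kinase gene Syk by 0.33. The adaptor gene Gab2 rose by 1.03 in B6 and fell by 0.28 in KO. These genes also act in other leukocytes.

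Across the 23 B6, KO and DBA lung libraries, with each group's mean removed, Cma1, Cpa3, Tpsb2 and Mcpt4 varied together from library to library. Pearson's r was 0.80 for Cma1 with Cpa3 (Spearman's rho 0.71), 0.79 for Cma1 with Tpsb2 (0.69), 0.80 for Cpa3 with Tpsb2 (0.72) and 0.78 for Cpa3 with Mcpt4 (0.72). Mcpt2 was less tied to Cma1 (r 0.47, rho 0.29). Kit had r of -0.17 with Cma1, and Mcpt8 had r of -0.09 with Mcpt4. These are descriptions over libraries that share strains and date codes, and low genes carry counting noise.

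**Figure D5:**
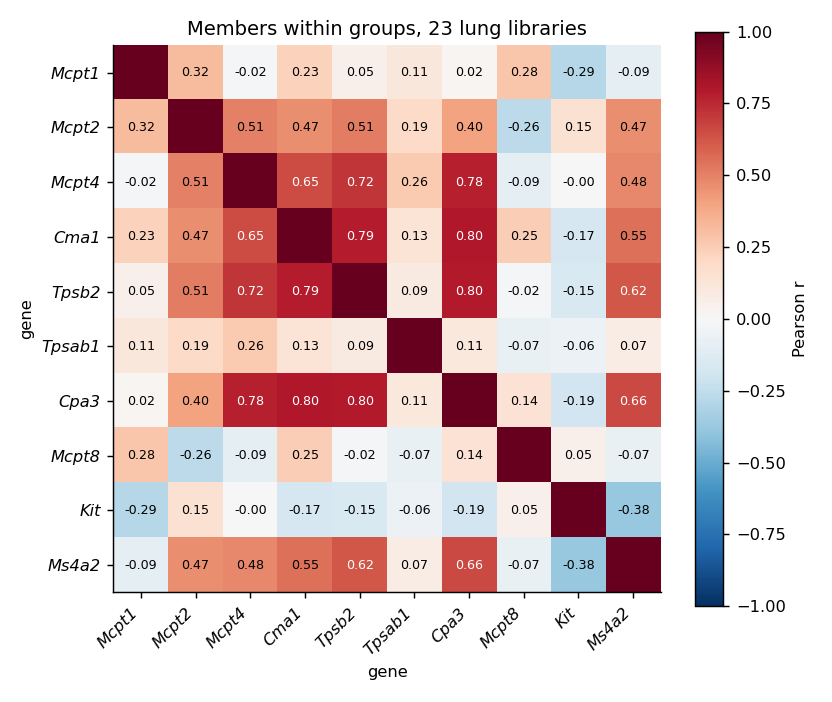
Pearson r between members across 23 lung libraries of B6, KO and DBA after each group's mean was removed, with genes on both axes and r printed in each cell. Cma1, Cpa3, Tpsb2 and Mcpt4 form a block with r of 0.65 to 0.80, and Kit and Mcpt8 have r between -0.19 and 0.25 with its genes.

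Among 14466 genes at a mean of 1 TPM or more, those most like Cma1 in these deviations were Zfp655 (r 0.81), Cpa3 (0.80), Tpsb2 (0.79), Cmc1 (0.78) and Ssna1 (0.76). Most like Cpa3 were Acyp2 (0.88), Snx5 (0.84), Zfp729b (0.82), Gpx8 (0.82) and Sar1b (0.81), with Cma1 at rank 8 and Tpsb2 at rank 9. Genes that are not members thus rank as high as the members do. Mcpt4 stood at rank 65 for Cma1 and rank 14 for Cpa3.

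The p53 peak lists of the authors, made from pooled replicates of each group, hold 134 to 4107 peaks in 10 lists, 6 from lung and 4 from macrophages. Within 10 kb of the start site of any member 0 peaks were listed. The lung lists hold only 134 to 255 peaks, so few genes of any kind can have a lung peak that near. The share of all genes with such a peak was not counted. Such lists show only what passed the authors' threshold, so weaker binding at these genes was not analysed here.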

How the data were processed

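Poly(A) RNA of perfused mouse lungs was sequenced. The deposited TPM values were made by the authors with STAR and HOMER on mm10, per the submitters' processing notes, and versions are not stated. Peaks of p53 binding were called by the authors with HOMER on replicates combined, per the file headers, and their deposited score, a normalized tag count, was not used further. Groups follow the sample labels. The 10 members and all gene lists were chosen with earlier results of these data known. All members, the marker genes beside Kit and up to 3 called genes with the largest change of each further list were to be named. Other called genes that are named were chosen after their values were seen.

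limma 3.58.1 in R 4.3.3 was run on log2(TPM + 1) with a variance trend over all groups of a table, for genes that reached 1 TPM in at least the number of libraries of the smallest group. It was tested on simulated data. Read numbers were estimated from whole steps in low values (100.0% whole within 0.15). Alternatives were a pseudocount of 0.1, no filter, quantile normalization, only the compared groups, sex or date code as terms, subsets by sex or date code, and leaving out each library.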

Additional observations from a re-analysis of the deposited data

Results flagged for a closer look

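Among 47 sets of 4 libraries examined for a single distant library, 4 held one, and chance gives about 1 in 20. In the 3 sets of Mcpt1 and Tpsab1 the other libraries are all at 0, so any library with reads counts as distant. They were Cpa3 in B6 room-air library 3 (4.927 TPM), Mcpt1 in DBA room-air library 3 (0.252 TPM), Mcpt1 in KO room-air library 4 (0.124 TPM) and Tpsab1 in KO room-air library 4 (0.641 TPM).

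The oxygen response differed between KO and B6 lungs, by the limma interaction test, for 14 genes over all gene lists and for 0 members. Of all genes tested 25.3% were called in this contrast, 16.4% higher and 8.98% lower, so such calls are not particular to these lists. KO minus B6 was higher on the log2 scale for Il33 (2.362, adjusted p = 0.000934), Adgre1 (0.996, adjusted p = 0.0124), Plcg2 (0.986, adjusted p = 0.00125), Kdr (0.822, adjusted p = 0.00407), Btk (0.664, adjusted p = 0.0444), Ptprc (0.581, adjusted p = 0.0294), Kitl (0.367, adjusted p = 0.0376) and Lyn (0.31, adjusted p = 0.0264). It was lower for Myh6 (-4.282, adjusted p = 0.0373), Tnnt2 (-2.691, adjusted p = 0.0266), Gata2 (-1.674, adjusted p = 9.93e-06), Gab2 (-1.31, adjusted p = 7.4e-06), Gpihbp1 (-0.963, adjusted p = 0.000329) and Inpp5d (-0.914, adjusted p = 0.000329). KO and B6 hyperoxia libraries share no date code. With date code as a term 10 of the 14 passed, and Btk (adjusted p = 0.107), Kitl (0.0807), Lyn (0.104) and Tnnt2 (0.0636) did not.

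Bone marrow-derived macrophages, cultured cells that the lung comparisons do not use, held Kit after 24 h in hyperoxia at a mean of 4.39 TPM in B6, 2.374 TPM in KO and 0.19 TPM in DBA. The room-air means were 2.253, 0.558 and 0.014 TPM. Each of these groups holds 2 libraries, and the DBA room-air mean rests on 2 estimated reads. The B6 columns carry another date code than those of KO and DBA, and only B6 holds columns marked female alone. Strain, date code and sex therefore cannot be told apart between B6 and the others. The 9 other members were at 0.838 TPM or less in all 12 of these libraries.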

How the results depend on the processing

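Of 757 alternative values of the members' differences, 664 kept direction and side of the threshold, 43 lost and 5 gained a call, and 45 that were never called changed sign; none of the called values reversed. The counts that follow include members that passed the filter only through hyperoxia libraries, so they describe only the dependence on settings. These are Mcpt2 in the comparisons of B6 and KO, Tpsab1 between DBA and B6, and Mcpt4 and Tpsb2 in B6 set 2. Under the main setting the share of all genes called was 42.7% in B6, 19.7% in KO and 25.3% for the difference of responses. Between DBA and B6 it was 46.1% in hyperoxia and 56.4% in room air. The share was 37.2% between KO and B6 in hyperoxia and 4.94% in B6 set 2. The number of members called was 6 in B6 and in KO, with 4 to 6 and 5 to 6 under alternatives, and 0 for the difference of their responses under all 21 settings. Between DBA and B6 in hyperoxia 3 were called, but 1 among males only, 1 with a pseudocount of 0.1 and 1 with sex as a term, and 1 to 3 when each library was left out. In room air 1 was called, but 0 among males only, 2 with no filter and 2 with only the compared groups, and 0 to 2 when each library was left out. Between KO and B6 in hyperoxia 0 were called, and 0 to 1 when each library was left out. In B6 set 2 the number was 3, but 1 with no filter, and 0 to 3 when each library was left out. The causes were not tested. Date code as a term could not be fitted for DBA and B6. Depth of 7.08 to 8.04 M reads limits Mcpt1, Mcpt2, Tpsab1 and Ms4a2 in B6 set 2.

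With the replicate block, B6 set 2 had 4 members called, Mcpt4 in addition (difference 1.28), with few residual degrees of freedom. Mcpt4 and Tpsb2 among them passed the filter only through hyperoxia libraries, so no test of them is used. Deviations of same-numbered libraries had r of 0.047 and 0.008. The room-air deviations are mirror images of each other, so these values are not independent and cannot settle whether the numbers pair the libraries. No paired analysis was possible because replicate numbers of the other lung tables restart within each date code.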
